A study of Mus musculus with 21 samples.

Results

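Fatty acid oxidation and PPAR target genes were followed in N202 mouse mammary tumor cells that had been adapted to growth on foreign tissue. The set is a fixed list of 34 genes of fatty acid uptake, activation, mitochondrial and peroxisomal oxidation and PPAR signaling, chosen by name, out of 19937 genes with a probe set of their own on the array. Of the 34, 31 had such a probe set, and the 1 with the highest mean over the arrays was used for each. After a filter on low values 22 were tested and 9 were dim, that is below a log2 level of 7.33 in the mean of every group. The remaining 3 were not analysed here: Acsl3 was read only by a probe set shared with Utp14b, and for Acsl1 and Ucp2 no probe set carried the symbol in the annotation used.

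N202.1A is a clone of a HER2-positive line from mammary carcinomas of FVB-NeuN mice, which carry the rat HER-2/neu transgene under the MMTV promoter, and all cells here, the parental ones included, express H2B-GFP. Spheroids were grafted on minced donor tissue from C57BL/6 mice in a dorsal skinfold chamber on nude mice for 21 days a passage, then recovered in culture under G418, sorted on GFP and grown again before RNA was taken, so the arrays read cultured cells and not tumors in place. The groups were cells of brain passages P1, P2, P3 and P4 (2 arrays each), lung P1 to P4 and bone marrow P1 to P4 (1 array each), breast P1 (1), P1 and P2 of a second brain experiment (1 each), and parental cells (P0, 2 arrays), 21 arrays in 16 groups. The mouse age was not given in the sources used here. Bone marrow, lung and breast are represented by 1 adapted line each and brain by 1 line in each experiment, and both arrays of a pair are cultures of the same adapted cells, so the p-values measure the spread between cultures and not between adaptations. Groups with 1 array borrowed the spread of the pairs.

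In fatty acid oxidation, long-chain fatty acids are joined to coenzyme A by acyl-CoA synthetases, passed into mitochondria by the carnitine shuttle and shortened there by repeated rounds of dehydrogenation, hydration and thiolysis, with electrons handed to the respiratory chain. Acyl-CoA thioesterases run the first step backwards, releasing the free fatty acid. The PPARs are nuclear receptors for fatty acids that bind DNA as pairs with RXR and raise the transcription of many of these genes, PPARα best known in liver, PPARγ in fat and PPARδ in many tissues.

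The labelled cell type was checked first. Of 9 mammary tumor epithelial markers, 8 exceeded 7.33 on all 21 arrays (Krt8, for instance, at 12.35 to 13.21), and Krt19 did not on any array, at 4.13 to 5.78. The 5 adipocyte markers read (Adipoq, Fabp4, Plin1, Lep and Retn) lay at 2.83 to 5.43 on every array. Of 8 macrophage markers, Cd14 was above the limit on all 21 arrays, Cd68 on 6, with its highest level of 8.48 on brain P2 replicate 2, and the other 6, Ptprc and Adgre1 among them, stayed at 5.69 or below. Mbp of the neural list passed the limit on 4 arrays, at most 7.50; the other 6 neural markers and all endothelial, fibroblast and muscle markers did not. In bulk RNA, fewer cells of a type and less RNA per cell cannot be told apart. The 5 arrays with the highest floor (5th percentile of all probe sets) were the second arrays of brain P1, P2, P3 and P4 and lung P1, at 2.49 to 3.04, against 2.01 to 2.40 on the other 16, and dim genes can read higher on these.

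PPARs bind pairs of the half-site AGGTCA spaced by 1 base, so windows of 300 bases around the transcription start (250 before, 50 after; RefSeq, GRCm38.p6) were searched on both strands. Windows were found for 30 of the 34 genes. The half-site AGGTCA was present in the windows of 6 of them (Acadm, Acadvl, Cd36, Cpt1a, Plin2 and Pparg) and in 16.3% of all 32851 windows. No member had the full repeat AGGTCANAGGTCA, which 0.0396% of windows hold. With up to 2 mismatches it was found in Cd36, Etfa, Plin2 and Slc25a20, and in 3.86% of all windows. The longer estrogen-related receptor type site TCAAGGTCA occurred in no member window and in 0.423% of all.

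Windows are shown for Acot2, Plin2, Cpt2 and Hadha, which are among the genes called below, and for Acot1 and Hadhb, their neighbors, of which Acot1 was not tested and Hadhb was not called. Acot2 and its paralog Acot1 are neighbors on chromosome 12, with starts 21641 bases apart; neither window held a half-site, and so both are in lower case. The Plin2 window carries the 2-mismatch repeat, in capitals, on the reverse strand 225 to 213 bases before the start used for that window. The repeat ends in a perfect half-site. In RefSeq the Plin2 gene begins further upstream, at 86670217, so the repeat is nearer to the first base of the gene than these distances say. The Cpt2 window held no half-site and is in lower case. Hadha and Hadhb are transcribed away from each other from starts 273 bases apart, and the 228 bases that both windows share are given on the plus strand.
Acot2, chr12:83987611-83987910, plus strand: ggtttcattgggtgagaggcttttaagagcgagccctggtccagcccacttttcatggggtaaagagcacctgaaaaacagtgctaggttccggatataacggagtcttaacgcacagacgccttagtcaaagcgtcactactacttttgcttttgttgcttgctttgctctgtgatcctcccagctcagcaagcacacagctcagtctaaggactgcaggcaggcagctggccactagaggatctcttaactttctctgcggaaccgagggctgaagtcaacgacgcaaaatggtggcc
Acot1, chr12:84009252-84009551, plus strand: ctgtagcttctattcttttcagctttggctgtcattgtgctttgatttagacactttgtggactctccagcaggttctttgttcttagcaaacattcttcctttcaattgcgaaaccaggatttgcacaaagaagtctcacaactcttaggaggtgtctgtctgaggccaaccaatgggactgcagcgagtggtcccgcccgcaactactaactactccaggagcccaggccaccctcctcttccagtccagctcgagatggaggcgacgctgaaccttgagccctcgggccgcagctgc
Plin2, chr4:86670010-86670309, minus strand: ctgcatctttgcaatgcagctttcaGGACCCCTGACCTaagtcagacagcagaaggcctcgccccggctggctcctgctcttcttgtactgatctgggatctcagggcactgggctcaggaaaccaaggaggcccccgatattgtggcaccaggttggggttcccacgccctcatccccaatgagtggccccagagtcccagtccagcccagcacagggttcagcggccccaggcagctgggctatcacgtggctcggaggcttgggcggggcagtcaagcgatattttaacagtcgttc
Cpt2, chr4:107923540-107923839, minus strand: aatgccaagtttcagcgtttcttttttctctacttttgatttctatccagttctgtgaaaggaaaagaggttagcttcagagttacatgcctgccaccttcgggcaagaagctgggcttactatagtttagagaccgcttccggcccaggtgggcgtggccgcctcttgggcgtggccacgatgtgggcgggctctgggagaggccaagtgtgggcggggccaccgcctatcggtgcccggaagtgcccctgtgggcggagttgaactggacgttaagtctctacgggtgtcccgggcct
Hadha and Hadhb, chr5:30155003-30155230, plus strand: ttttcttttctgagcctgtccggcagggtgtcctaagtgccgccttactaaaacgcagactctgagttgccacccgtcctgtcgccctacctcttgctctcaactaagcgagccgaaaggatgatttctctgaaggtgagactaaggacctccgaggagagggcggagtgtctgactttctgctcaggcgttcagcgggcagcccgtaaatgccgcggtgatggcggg

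As a set the genes lay near or somewhat below the parental level in the first brain line. The median log2 difference from P0 over the 22 tested members was -0.20 at brain P1, -0.01 at brain P2, -0.25 at brain P3 and -0.24 at brain P4, where the medians over all 7300 genes tested were -0.02, -0.05, -0.10 and -0.19. The differences spanned -1.15 to 0.78 at brain P1 and -0.95 to 2.24 at brain P2, so single genes went apart within the set. In the second brain experiment the member medians were -0.23 at P1 and -0.09 at P2 (-0.00 and -0.06 for all genes). At bone marrow P1 to P4 they were 0.09, -0.24, -0.36 and -0.20 (-0.01, 0.02, -0.07 and 0.03 for all genes). A gene was called at a limma adjusted p under 0.05. At brain P1, 1 of 22 members was called (5.55% of all genes), at brain P2 2 of 22 (13.3%), at brain P3 0 of 22 (0.658%) and at brain P4 0 of 22 (1.01%). At an unadjusted p under 0.05, 5, 4, 6 and 2 of the 22 passed at P1, P2, P3 and P4, and 1617, 2109, 993 and 1185 of all genes. These comparisons share the 2 parental arrays. Of the 22, 17 were over 7.33 in the mean of every group; Fabp3, Cpt2, Slc25a20, Acadvl and Acads were over it in some groups only, and Slc25a20 passed through brain P1 and P2 alone.

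**Figure D1:**
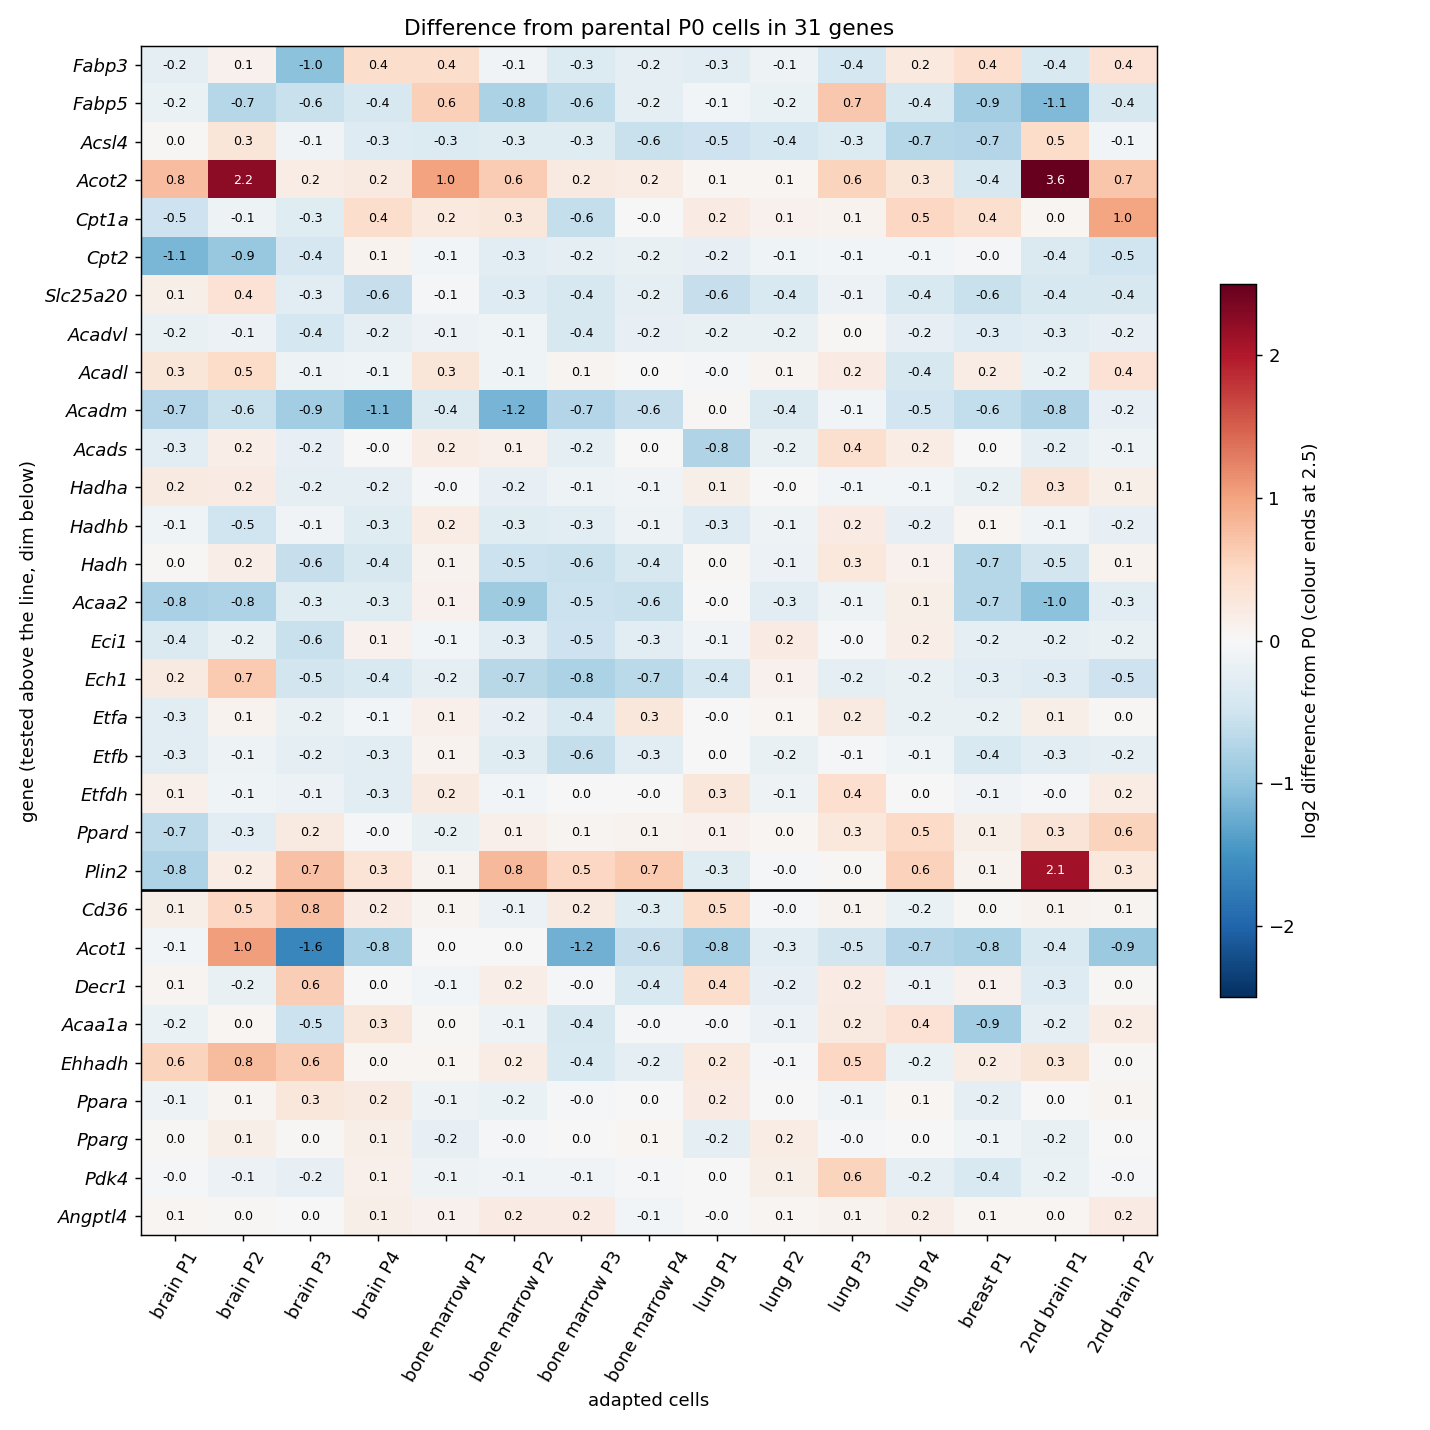
Log2 difference from the parental P0 mean (color, and the number in each cell, to 1 decimal) for 31 genes (rows; the 22 tested above the line, the 9 dim ones below) in 15 groups of adapted cells (columns). The darkest cells are Acot2 at 3.60 in the second brain experiment P1 and 2.24 at brain P2, and Plin2 at 2.09 in the second brain experiment P1.

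The thioesterases held the largest difference in the set. Acot2, the mitochondrial acyl-CoA thioesterase and a PPARα target in mouse liver, had log2 levels of 8.54 and 9.00 at brain P1, 9.99 and 10.48 at P2, 8.07 and 8.26 at P3 and 7.92 and 8.51 at P4, against 7.89 and 8.09 in parental cells. Both P2 arrays were above every other array of the first brain line, and the P3 and P4 arrays lay around the parental ones. The difference from P0 was 2.24 ± 0.27 (log2, SE, n = 2 and 2; 4.74-fold; limma adjusted p = 0.0024) at brain P2 and 0.78 ± 0.27 (adjusted p = 0.15) at brain P1. Brain P2 exceeded brain P1 by 1.46 ± 0.27 (adjusted p = 0.039), the 1 call of 22 members in that comparison, in which 1.88% of all genes were called.

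Outside the first brain line, Acot2 read 11.59 at P1 and 8.69 at P2 of the second brain experiment. It read 8.99, 8.61, 8.22 and 8.17 at bone marrow P1 to P4, 8.04, 8.04, 8.55 and 8.30 at lung P1 to P4, and 7.58 at breast P1. The second brain experiment P1 array thus stood above all 20 others, 3.60 ± 0.33 over P0 (12.1-fold; adjusted p = 0.0057), and the P2 array was 0.70 ± 0.33 over P0 (adjusted p = 0.73). In the first experiment the higher level came at P2 and in the second at P1. Chromosome 12 genes had a median of -0.19 at brain P2 and 0.08 in the second brain experiment P1. The brain P2 difference was 2.00 to 2.49 over 13 other settings; its call was lost in 1, without the 5 arrays with the highest floor (adjusted p = 0.089), and the P2 over P1 call was lost without any 1 of the 4 arrays compared (adjusted p = 0.062 to 0.20).

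Acot1, the cytosolic thioesterase encoded next to Acot2, was dim and had no test. It had levels of 6.19 and 6.14 at brain P1, 7.13 and 7.41 at P2, 5.58 and 3.58 at P3 and 5.17 and 5.68 at P4, against 6.39 and 6.05 in parental cells. The 2 highest of the 21 values were those of brain P2, whose mean lies just under the 7.33 limit. In the second brain experiment P1, where Acot2 was highest, Acot1 was at 5.84, below both parental arrays, and P2 read 5.29. Acot1 ranged from 5.01 to 6.24 on the bone marrow arrays and from 5.39 to 5.94 on the lung arrays, and was 5.43 at breast P1. The 2 genes share sequence, and cross-hybridization between their probe sets was not tested.

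**Figure D2:**
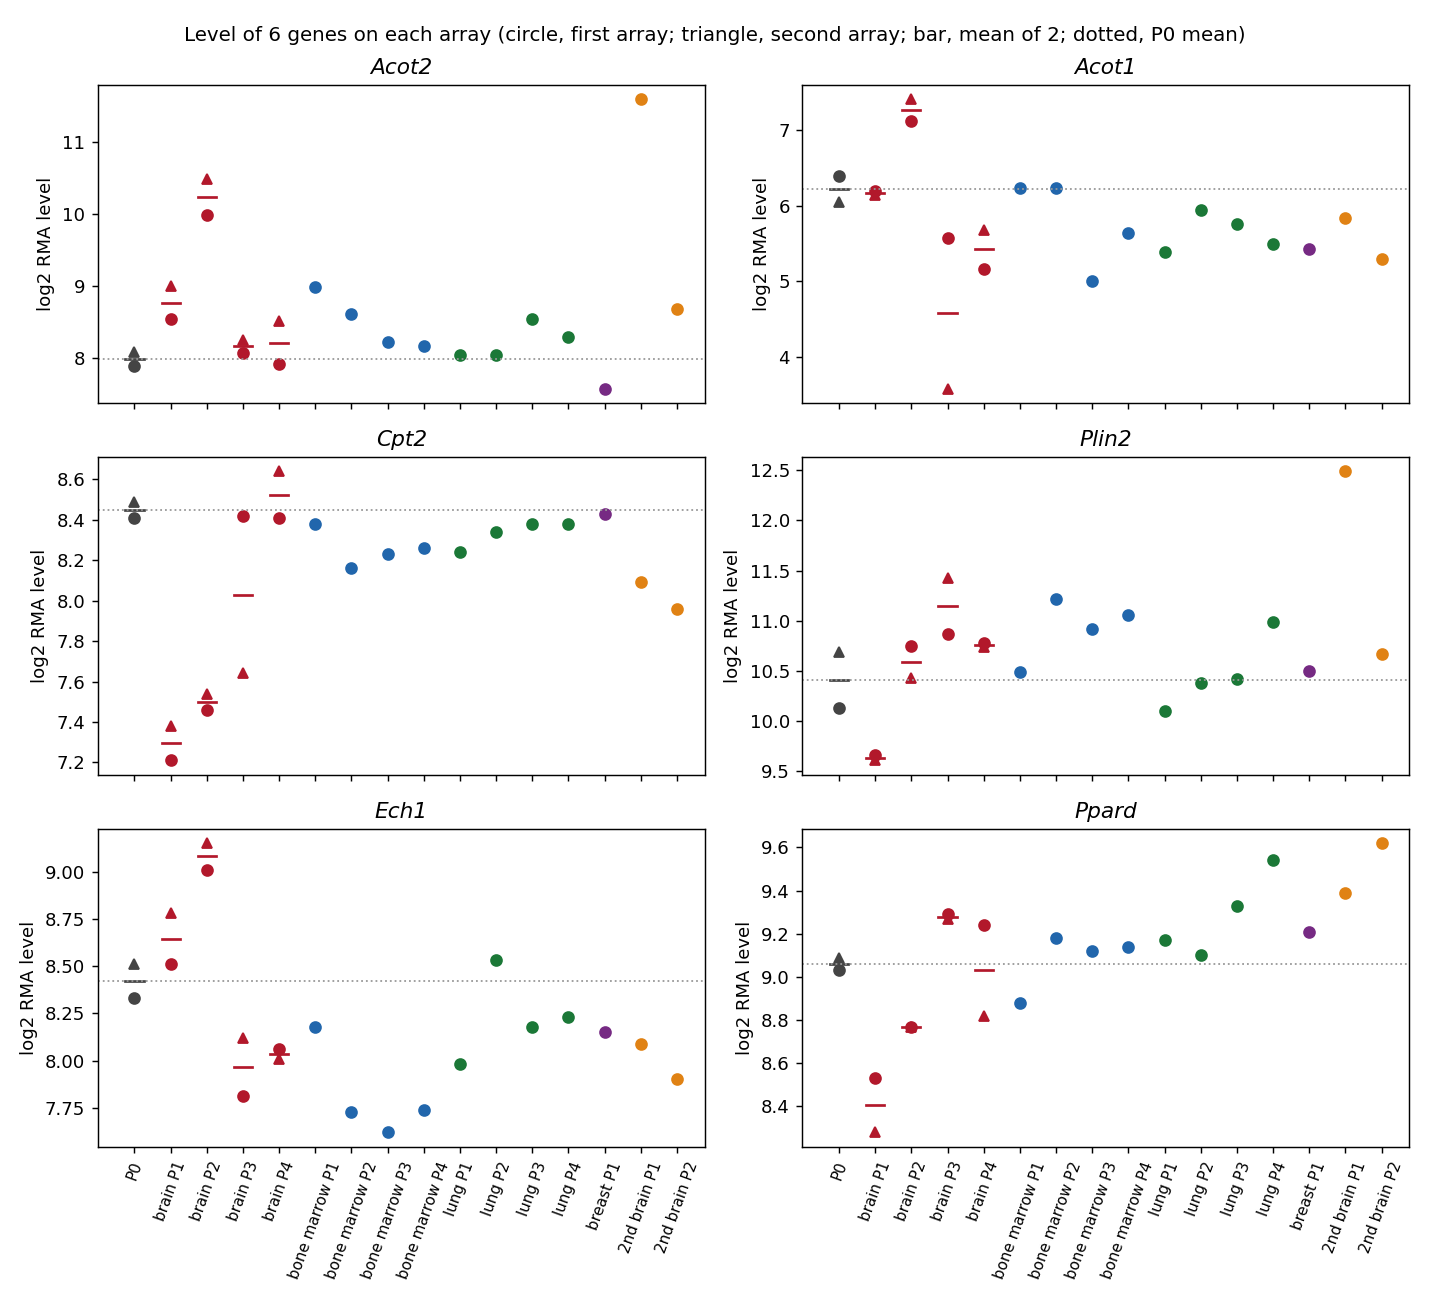
Log2 RMA level (vertical axis, a range of its own in each panel) of Acot2, Acot1, Cpt2, Plin2, Ech1 and Ppard on each of 21 arrays, by group (horizontal axis; circles first arrays, triangles second arrays, short bars the mean of 2, dotted line the P0 mean). Acot2 peaks at 9.99 and 10.48 at brain P2 and at 11.59 in the second brain experiment P1, and Cpt2 is lowest at 7.21 to 7.54 at brain P1 and P2.

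The 3 genes of the carnitine shuttle did not move together. Cpt2, the inner-membrane transferase that returns acyl groups to coenzyme A, had levels of 7.21 and 7.38 at brain P1, 7.46 and 7.54 at P2, 8.42 and 7.64 at P3 and 8.41 and 8.64 at P4, against 8.41 and 8.49 in parental cells. The 4 arrays of P1 and P2 were the lowest of all 21. Cpt2 read 8.38, 8.16, 8.23 and 8.26 at bone marrow P1 to P4, 8.24, 8.34, 8.38 and 8.38 at lung P1 to P4, 8.43 at breast P1, and 8.09 and 7.96 at P1 and P2 of the second brain experiment. It fell by 1.15 ± 0.25 at brain P1 (adjusted p = 0.035) and by 0.95 ± 0.25 at brain P2 (adjusted p = 0.042), relative to P0.

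Cpt2 lies on chromosome 4, whose 446 genes had a median of -0.58 at brain P1 and -0.58 at brain P2. With the median of each chromosome subtracted on each array, the Cpt2 difference was -0.57 at P1 (adjusted p = 0.24) and -0.37 at P2 (adjusted p = 0.35), and neither was called. Both calls were also lost without any 1 of the arrays compared (P0 replicate 1 or 2, or replicate 1 or 2 of that brain passage), with adjusted p of 0.12 to 0.18 at P1 and 0.13 to 0.16 at P2.

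Cpt1a, the outer-membrane transferase that sets the rate of entry, had levels of 8.00 and 7.38 at brain P1, 7.76 and 8.39 at P2, 8.13 and 7.66 at P3 and 8.86 and 8.43 at P4, against 8.04 and 8.36 in parental cells. The parental values lay within the range of the brain arrays. It read 8.43, 8.48, 7.61 and 8.19 at bone marrow P1 to P4, 8.40, 8.30, 8.28 and 8.72 at lung P1 to P4, 8.61 at breast P1, and 8.24 and 9.19 at P1 and P2 of the second brain experiment. No difference of Cpt1a was called, and the second brain experiment P2 array, at 0.99 ± 0.38 over P0 (adjusted p = 0.63), had the highest level. Slc25a20, the carnitine-acylcarnitine exchanger of the inner membrane, had levels of 7.34 and 7.49 at brain P1, 7.55 and 7.73 at P2, 7.01 and 6.98 at P3 and 6.83 and 6.57 at P4, against 6.90 and 7.63 in parental cells. The P1 to P3 values lay within or just above the parental range, both P4 values lay below it, and no difference from P0 was called.

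Among the receptors, Ppard was the only tested one. Its levels were 8.53 and 8.28 at brain P1, 8.77 and 8.77 at P2, 9.29 and 9.27 at P3 and 9.24 and 8.82 at P4, against 9.03 and 9.09 in parental cells. All 4 arrays of brain P1 and P2 were below the parental arrays, at -0.66 ± 0.19 for P1 (adjusted p = 0.090). Ppard read 8.88, 9.18, 9.12 and 9.14 at bone marrow P1 to P4, 9.17, 9.10, 9.33 and 9.54 at lung P1 to P4, 9.21 at breast P1, and 9.39 and 9.62 at P1 and P2 of the second brain experiment, the last being the highest of the 21.

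Ppara, the liver-type receptor, was dim. Its levels were 4.18 and 3.92 at brain P1, 4.37 and 4.07 at P2, 4.05 and 4.87 at P3 and 4.17 and 4.61 at P4, against 4.19 and 4.15 in parental cells. On the bone marrow arrays P1 to P4 Ppara had 4.05, 4.01, 4.13 and 4.17, on the lung arrays 4.38, 4.17, 4.08 and 4.22, at breast P1 3.92, and in the second brain experiment 4.17 and 4.23. Its highest value was on brain P3 replicate 2, the array with the highest floor. Pparg, the adipocyte-type receptor, had 4.40 and 4.45 at brain P1, 4.42 and 4.68 at P2, 4.34 and 4.52 at P3 and 4.40 and 4.69 at P4, against 4.40 and 4.40 in parental cells. Pparg had 4.19, 4.37, 4.40 and 4.45 on the bone marrow arrays, 4.16, 4.58, 4.37 and 4.40 on the lung arrays, 4.30 at breast P1, and 4.21 and 4.40 in the second brain experiment. No value of either receptor exceeded 4.87, far under the 7.33 limit.

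Pdk4 and Angptl4 are widely used readouts of PPAR activity. Pdk4, the kinase that shuts off pyruvate dehydrogenase, had 3.25 and 4.65 at brain P1, 3.89 and 3.78 at P2, 3.65 and 3.86 at P3 and 4.15 and 4.02 at P4, against 3.90 and 4.04 in parental cells. Pdk4 had 3.84, 3.89, 3.89 and 3.92 on the bone marrow arrays, 3.98, 4.12, 4.53 and 3.73 on the lung arrays, 3.59 at breast P1, and 3.81 and 3.94 in the second brain experiment. Both of its extremes were on the arrays of brain P1. Angptl4, a secreted inhibitor of lipoprotein lipase, had 4.85 and 4.28 at brain P1, 4.57 and 4.50 at P2, 4.57 and 4.49 at P3 and 4.78 and 4.54 at P4, against 4.47 and 4.56 in parental cells. Angptl4 had 4.62, 4.72, 4.72 and 4.46 on the bone marrow arrays, 4.52, 4.57, 4.60 and 4.68 on the lung arrays, 4.57 at breast P1, and 4.56 and 4.72 in the second brain experiment. Both genes were dim in every group and had no test, and PPAR activity was not tested.

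Plin2, which coats lipid droplets and is raised by PPARs and by fatty acid load, had levels of 12.49 at P1 and 10.67 at P2 of the second brain experiment, against 10.13 and 10.69 in parental cells. The P1 value was the highest of the 21 and 2.09 ± 0.31 over P0 (4.24-fold; adjusted p = 0.020). In the first brain line Plin2 was at 9.66 and 9.61 at P1, 10.75 and 10.43 at P2, 10.87 and 11.43 at P3 and 10.78 and 10.74 at P4. The 2 brain P1 arrays were the lowest of all and lay below both parental arrays, at -0.77 ± 0.25 (adjusted p = 0.13). Plin2 lies on chromosome 4, whose genes had a median of -0.58 at brain P1. Plin2 had 10.49, 11.22, 10.92 and 11.06 on the bone marrow arrays P1 to P4, 10.10, 10.38, 10.42 and 10.99 on the lung arrays and 10.50 at breast P1. In the second brain experiment P1, Acot2 and Plin2 were the 2 of 22 members called, both up, while 1.55% of all genes were called. Both rest on 1 array; the Plin2 call was lost without P0 replicate 1 (1.81, adjusted p = 0.065), and both calls were lost when all probe sets were tested (adjusted p = 0.12 for Acot2 and 0.26 for Plin2). At P2 of the second brain experiment 0 of 22 members and 0% of all genes were called by limma, and 3 members and 531 genes had an unadjusted p under 0.05.

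**Figure D3:**
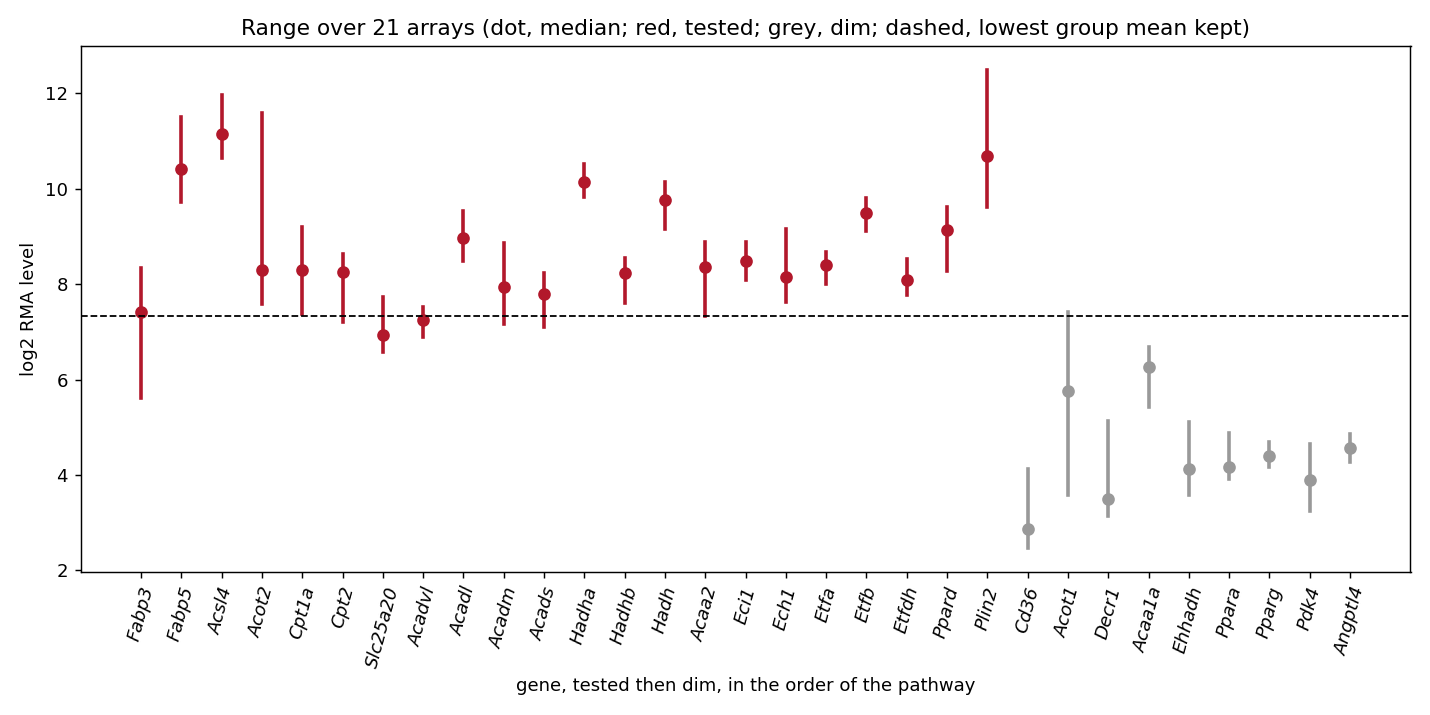
Log2 RMA level (vertical axis) over 21 arrays for 31 genes (horizontal axis, in pathway order); the line runs from the lowest to the highest array, the dot is the median, and the dashed line at 7.33 is the lowest group mean kept. Acot2 (7.58 to 11.59) and Plin2 (9.61 to 12.49) span the widest ranges of the tested genes, while Ppara, Pparg, Pdk4 and Angptl4 reach at most 4.87.

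Fatty acid uptake and activation could be read only in part. Cd36, the fatty acid translocase, was dim at 2.47 to 4.12. Fabp3, the heart-type binding protein, ranged over 5.62 to 8.33 and Fabp5, the epidermal type, over 9.72 to 11.50, and neither was called in any comparison. Each had a second probe set: the Fabp3 one was dim at 3.87 to 4.96, where the chosen one was not. Which of them reads Fabp3, or a copy of it, was not tested, so these values are not taken as the level of Fabp3. The second Fabp5 probe set ranged over 8.81 to 10.74 and was not called either. Which of these reads Fabp5, or a copy of it, was not tested either. The chosen probe sets of both genes stay in the counts of 22 tested members. Acsl4, the acyl-CoA synthetase that favors arachidonate, was the only synthetase tested and ranged over 10.64 to 11.96. It had 11.41 and 11.33 in parental cells and 10.95 and 11.15 at brain P4. The bone marrow arrays had 10.82 to 11.07, the lung arrays 10.66 to 11.04 and breast P1 10.64, all below both parental arrays. No difference of Acsl4 from P0 was called.

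No gene among the 10 tested mitochondrial ones or the 3 of electron transfer (Etfa, Etfb and Etfdh) was called in any comparison with P0. At brain P3 all 10 mitochondrial genes were nevertheless below P0, with a median of -0.37 (-0.10 for all genes). Of the 10, 5 had an unadjusted limma p under 0.05, as did 993 of all 7300 genes. How many of all genes lay below P0 was not counted. At brain P4 and in the second brain experiment P1, 9 of the 10 were below P0, with medians of -0.28 and -0.27 (-0.19 and -0.00 for all genes). The median log2 level of the 10 genes was 8.37 and 8.73 on the parental arrays and 8.16 and 8.18 at brain P3. It was 8.57, 8.01, 8.10 and 8.16 at bone marrow P1 to P4. At lung P1 to P4 it was 8.59, 8.45, 8.54 and 8.36, and at breast P1 8.28. The lower level was thus not particular to brain passages, and the parental arrays themselves lay apart. Acadm, the medium-chain dehydrogenase, was at 7.71 and 7.91 at brain P1, 7.71 and 8.29 at P2, 7.78 and 7.61 at P3 and 7.17 and 7.70 at P4, against 8.24 and 8.86 in parental cells. Only 1 of these 8 arrays reached the lower parental value, and the brain P4 difference of -1.12 was not called. Acaa2, the mitochondrial thiolase, had differences of -0.81 at brain P1, -0.78 at P2 and -1.03 in the second brain experiment P1 (adjusted p = 0.30 at brain P1), none called. The electron transfer genes, which pass electrons from the dehydrogenases to the respiratory chain, varied little: Etfa ranged over 8.01 to 8.68, Etfb over 9.12 to 9.80 and Etfdh over 7.77 to 8.52. Decr1, which handles double bonds, and the peroxisomal Acaa1a and Ehhadh were dim and had no test, and the highest values of Decr1 (5.14) and Ehhadh (5.11) were on brain P3 replicate 2.

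On bone marrow, lung and breast tissue no member was called against P0 by limma: 0 of 22 for the 4 bone marrow passages (0.37% of all genes), 0 of 22 for the 4 lung passages (0.205%) and 0 of 22 for breast P1 (0.26%). At an unadjusted p under 0.05, 3, 1 and 2 members passed for bone marrow, lung and breast, and 634, 380 and 541 of all genes. The member medians were -0.16 for bone marrow, -0.06 for lung and -0.22 for breast, and those of all genes -0.01, -0.05 and 0.00. Between bone marrow and lung 0 of 22 members were called and 0.123% of all genes, with 5 members and 1032 genes at an unadjusted p under 0.05. The member with the largest difference over the bone marrow passages was Acadm, at -0.70.

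The late and early passages of the brain line were set against each other next (P3 and P4 minus P1 and P2, 4 arrays each). Here 8 of 22 members were called, 3 up and 5 down, while 27.5% of all genes were called, 797 up and 1213 down, so the 36.4% of members called was not far from the share of all genes. The member median was -0.12 and that of all genes -0.10. Ech1, Hadh, Hadha, Slc25a20 and Acot2 were lower in late passages and Cpt2, Ppard and Plin2 higher. Slc25a20 is counted here, but it passed the filter only through the early brain groups, so it had to be higher in them and its call supports nothing.

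Ech1, the isomerase that repositions double bonds, had 7.81 and 8.12 at P3 and 8.06 and 8.01 at P4, against 8.51 and 8.78 at P1 and 9.01 and 9.15 at P2. No late array reached an early one, and the difference was -0.86 ± 0.13 (adjusted p = 0.0025). Relative to P0, Ech1 was at 0.23, 0.66, -0.45 and -0.39 at brain P1 to P4. It was at -0.24, -0.69, -0.80 and -0.68 at bone marrow P1 to P4, and at -0.44, 0.11, -0.24 and -0.19 at lung P1 to P4. The low level was thus not particular to late brain passages. Hadh, the short-chain hydroxyacyl-CoA dehydrogenase, had 9.49 and 9.15 at P3 and 9.40 and 9.59 at P4. It had 9.86 and 9.98 at P1 and 9.98 and 10.15 at P2, a difference of -0.58 ± 0.14 (adjusted p = 0.017) with no overlap. Relative to P0, Hadh was at 0.02, 0.17, -0.58 and -0.40 at brain P1 to P4. It was at 0.08, -0.54, -0.56 and -0.41 at bone marrow P1 to P4 and -0.72 at breast P1. Lung P1 to P4 had 0.03, -0.14, 0.26 and 0.11. Slc25a20 had 7.01 and 6.98 at P3 and 6.83 and 6.57 at P4, against 7.34 and 7.49 at P1 and 7.55 and 7.73 at P2, a difference of -0.68 given as a description only. Its late values were all below 7.33. Acot2 fell by 1.31 ± 0.19 (adjusted p = 0.0018), with its late arrays at 7.92 to 8.51 and its early ones at 8.54 to 10.48.

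Hadha and Hadhb, the α and β subunits of the mitochondrial trifunctional protein, are the pair whose shared start region is printed above. Hadha had 9.97 and 9.94 at P3 and 9.82 and 10.07 at P4, against 10.42 and 10.40 at P1 and 10.37 and 10.42 at P2, a difference of -0.45 ± 0.12 (adjusted p = 0.022) with no overlap. Hadhb had 8.33 and 8.21 at P3 and 8.04 and 8.03 at P4, against 8.23 and 8.25 at P1 and 7.60 and 8.10 at P2, and its late and early values overlapped (0.11 ± 0.14, adjusted p = 0.60). The difference between both genes was not tested.

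The 3 genes higher in late brain passages were Cpt2 at 0.88 ± 0.18 (adjusted p = 0.0080), Plin2 at 0.84 ± 0.18 (adjusted p = 0.010) and Ppard at 0.57 ± 0.13 (adjusted p = 0.017). The late Cpt2 arrays, at 7.64 to 8.64, and the late Ppard arrays, at 8.82 to 9.29, lay above all early ones, while for Plin2 a late array at 10.74 fell just below an early one at 10.75. Chromosome 4, which carries Cpt2 and Plin2, had a median of 0.53 in this comparison. With chromosome medians subtracted the differences were 0.35 for Cpt2 (adjusted p = 0.16) and 0.31 for Plin2 (adjusted p = 0.28), and neither was called; nor was Hadha at -0.30 (adjusted p = 0.13). Ppard is on chromosome 17, with a median of -0.17. Several calls were lost on leaving out 1 array: that of Hadh without the second array of brain P1, P2 or P3 (adjusted p = 0.051 to 0.062), that of Hadha without any 1 of brain P1 or P2 or without P3 replicate 2 or P4 replicate 1 (0.054 to 0.073), and that of Ppard without brain P1 replicate 2 (0.068).

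**Figure D4:**
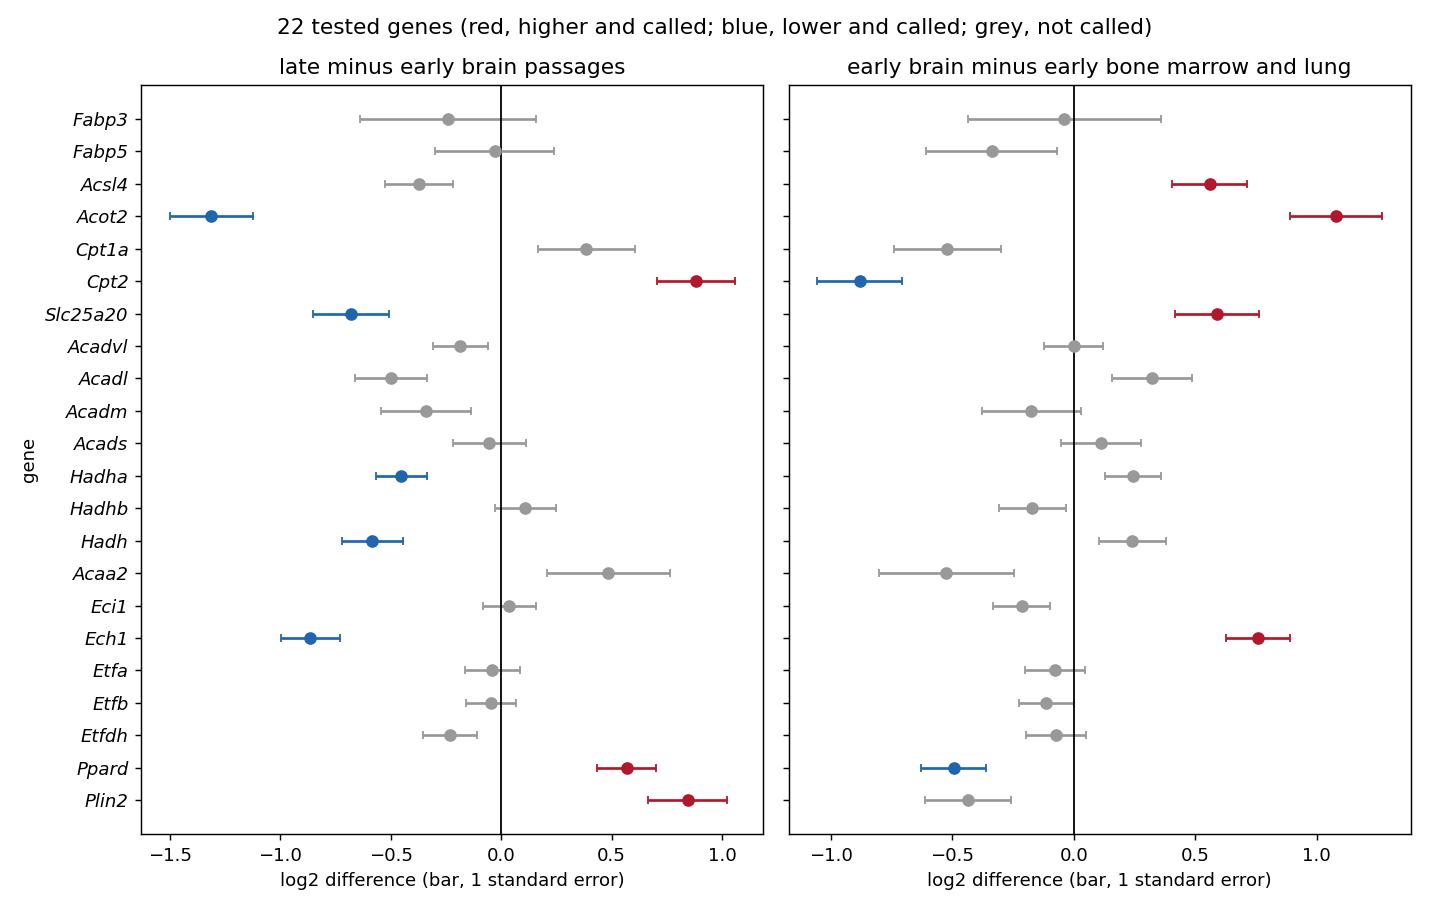
Log2 difference (horizontal axes; bars, 1 standard error) of the 22 tested genes (rows) between late and early brain passages (left) and between early brain passages and early bone marrow and lung passages (right); red and blue mark higher and lower genes called by limma. Acot2 is at -1.31 on the left and 1.08 on the right, and Cpt2 at 0.88 and -0.88; both panels share the 4 early brain arrays.

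Against the same passages on other tissues (brain P1 and P2 minus bone marrow P1 and P2 and lung P1 and P2), 6 of 22 members were called, 4 up and 2 down, while 23.6% of all genes were called; the share among members was 27.3%, close to that of all genes. This comparison uses the same early brain arrays as the previous one, with the sign of those arrays turned. Acot2 had 8.54, 9.00, 9.99 and 10.48 on the early brain arrays, against 8.99 and 8.61 with bone marrow and 8.04 and 8.04 with lung, a difference of 1.08 ± 0.19 (adjusted p = 0.0049); brain P1 replicate 1 lay within the range of the others. Ech1 was 0.76 ± 0.13 higher (adjusted p = 0.0048), with early brain at 8.51 to 9.15, against 7.73 to 8.53 on both other tissues. Acsl4 was 0.56 ± 0.15 higher (adjusted p = 0.033), with 11.27 to 11.96 on early brain and 10.86 to 11.06 on the others. The parental arrays had 11.41 and 11.33, within the early brain range and above the bone marrow and lung arrays. Slc25a20, at a difference of 0.59, is among the 6 but again only as a description, since it passed the filter through these early brain arrays alone.

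Cpt2 was 0.88 ± 0.18 lower in early brain cells (adjusted p = 0.0087), and Ppard was 0.50 ± 0.13 lower (adjusted p = 0.031), with 8.28 to 8.77 on early brain arrays, against 8.88 to 9.18 on the 4 others. Chromosome 4 had a median of -0.62 here, and with chromosome medians subtracted Cpt2 was at -0.26 (adjusted p = 0.32) and Acsl4 at 0.44 (0.098), neither called. With the replicate number as a block 5 members were called: Acsl4 (adjusted p = 0.065), Slc25a20 and Ppard (0.060) were lost and Acadl and Acaa2 were gained. The call of Acsl4 was lost without brain P1 replicate 1 or 2, brain P2 replicate 2 or either lung array (adjusted p = 0.052 to 0.11), and that of Ppard without any 1 brain array, bone marrow P2 or lung P1 (0.055 to 0.12).

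The second brain experiment was compared with the first at the same passages (P1 and P2 of each). Of 22 members 3 were called, 2 up and 1 down, or 13.6%, while 13.3% of all genes were called. Plin2 had 12.49 and 10.67 in the second experiment, against 9.61 to 10.75 in the first (1.47 ± 0.22, adjusted p = 0.0041). This rested on the P1 array: without it the difference was 0.56 (adjusted p = 0.31). Chromosome 4 had a median of 0.61, and Plin2 was at 0.86 (adjusted p = 0.058) with chromosome medians subtracted. Ppard had 9.39 and 9.62, against 8.28 to 8.77 (0.92 ± 0.16, adjusted p = 0.0094). Ech1 had 8.09 and 7.90, against 8.51 to 9.15 (-0.87 ± 0.16, adjusted p = 0.011). Neither Ppard nor Ech1 overlapped between the experiments, and both calls were lost without the second experiment P2 array (0.80 and -0.77, adjusted p = 0.062 and 0.066). The Acot2 difference of 0.64 ± 0.23 was not called (adjusted p = 0.12).

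Further genes of the pathway were read from 3 lists. Of 58 further oxidation and PPAR genes 21 were tested, and in late against early brain passages 1 was called up and 7 down (38.1% of those tested, against 27.5% of all genes), with a median of -0.38, against -0.10 for all genes. The gene with the largest difference was Ppargc1a, the coactivator of PPARs and of mitochondrial gene programs. It had 5.47 and 5.74 at brain P3 and 5.72 and 6.43 at P4, against 8.43 and 8.44 at P1 and 8.72 and 9.17 at P2 (-2.85 ± 0.31, adjusted p = 4.3e-04). The parental arrays had 7.12 and 8.58, the second of them within the early brain range, and the late values were below the 7.33 limit. Ppargc1a was 1.73 ± 0.31 higher in early brain cells than in early bone marrow and lung cells (adjusted p = 0.0051). There it had 7.63 and 5.86 in bone marrow cells and 7.71 and 6.62 in lung cells. Ppargc1a had 5.49 and 5.79 at bone marrow P3 and P4 and 7.92 and 6.30 at lung P3 and P4. Breast P1, at 5.03, was the lowest of all arrays, and the second brain experiment had 7.60 and 6.64. Low levels were thus not particular to late brain passages.

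Of the other genes of that list, the ones with the lowest p in late against early brain passages were Crat, the carnitine acetyltransferase, at -0.85 (adjusted p = 0.0018), Pdp1, a phosphatase that switches pyruvate dehydrogenase on, at -0.87 (adjusted p = 0.0019), and Pdk3, a kinase that switches it off, at 1.14 (adjusted p = 0.0021). Against P0, Pdk3 was at -1.76 at brain P2 (adjusted p = 0.0037) and Pdp1 at 0.74 (adjusted p = 0.032). Acox2, an oxidase of branched-chain and bile acid side chains in peroxisomes, was at -1.16 at brain P1 (adjusted p = 0.014) and -1.58 at brain P4 (adjusted p = 0.0095). Its parental levels were 9.40 and 9.48. It had 8.51 to 8.97 on the bone marrow arrays, 7.94 to 8.91 on the lung arrays and 8.02 at breast P1. The second brain experiment had 9.01 and 8.11. Lower levels of Acox2 were thus not particular to brain passages. Slc27a1, a fatty acid transporter, was at 1.16 over P0 at brain P4 (adjusted p = 0.033). It had 8.50 and 8.22 there, against 7.08 and 7.33 in parental cells. Lung P4, at 8.57, was the highest array, and the second brain experiment had 7.95 and 8.06. The bone marrow arrays had 6.91 to 7.43. The higher level was thus not particular to brain P4.

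Of 18 lipid droplet and lipolysis genes 5 were tested. Pnpla2, the first lipase of stored triglyceride, was the 1 of 5 called at brain P2 (13.3% of all genes), at 0.72 ± 0.16 over P0 (adjusted p = 0.021), with 9.91 and 9.94, against 9.25 and 9.16 in parental cells. In late against early brain passages Pnpla2 and Plin3, a droplet coat protein, were called lower and Bscl2 (seipin) higher, 3 of 5 where 27.5% of all genes were called. Of 24 fatty acid synthesis genes 22 were tested, and in the second brain experiment P1 2 were called down and 0 up (9.09% of those tested, against 1.55% of all genes), with a median of -0.76, against -0.00 for all genes. Scd2, a desaturase, had 10.04 there, against 12.34 and 13.09 in parental cells, and Fasn, the fatty acid synthase, had 9.42, against 10.47 and 10.80. On this array, therefore, Acot2 and Plin2 were at their highest while Fasn and Scd2 were at their lowest of the 21. The calls of Fasn and Scd2 also rest on this 1 array and were lost when all probe sets were tested. Of all genes tested, 21.2% differed from P0 by more than 1.5-fold on it.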

How the data were processed

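Cultured N202 tumor cells were profiled on 21 arrays (Affymetrix Mouse Gene 1.0 ST), grouped by their labels. The authors deposited log2 values, obtained with RMA in the Affymetrix Expression Console (background correction, quantile normalization, median polish). Quantile normalization gives the probe intensities of all arrays 1 distribution before they are summarized by probe set. Differences are thus relative to the other genes. Of 34760 probe sets 21640 carry 1 symbol; genes were matched by symbol and placed by a RefSeq table (GRCm38.p6). The 1 probe set per gene with the highest mean was used.

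The 10522 probe sets with the largest group mean were kept (lowest 7.33), the number the methods kept. One limma model (limma 3.58.1, R 4.3.3) with a mean per group was fitted to every array; variances were moderated by empirical Bayes (residual degrees of freedom 5, prior 3.9), with Benjamini-Hochberg adjustment over the kept probe sets; calls are at 0.05 and counts over 7300 genes. The procedure was tested on simulated data. All gene lists, the genes given in full and the tests were chosen with earlier results of these data known. Values on every array are given for members called in the brain passages against P0, for the PPAR genes and for Cpt1a, Pdk4, Angptl4, Acot1 and Acot2; the array values of other called members and of Acadm were added after their results were seen. Promoter windows came from RefSeq. Python 3.11.15 and matplotlib 3.10.9 drew the figures. Of the array precision only the number of arrays can be stated. The alternatives were cyclic loess, equal array medians, no filter, a filter of 7000 probe sets, a variance trend, a replicate block, the mean over probe sets, subtraction of chromosome medians, each array left out and, added after the data were seen, leaving out the 5 arrays with the highest floor and the second probe sets of Fabp3 and Fabp5.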

Additional observations from a re-analysis of the deposited data

Results flagged for a closer look

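Early brain cells (P1 and P2) differed from early bone marrow and lung cells in 6 members by the limma test of that difference (adjusted p under 0.05): Acot2 by 1.08, Ech1 by 0.76, Slc25a20 by 0.59 and Acsl4 by 0.56 on the log2 scale, all higher in brain cells, and Cpt2 by -0.88 and Ppard by -0.50. The share called was 27.3% of the tested members and 23.6% of all genes. Slc25a20 passed the filter only through the early brain groups, and its difference is a description. For Acsl4 the parental levels, 11.41 and 11.33, lay within the early brain range and above the early bone marrow and lung cells. The call of Acsl4 and that of Ppard were each lost in 9 of 17 alternatives, that of Slc25a20 in 13 of 16, and that of Cpt2 in 3 of 17, among them the subtraction of chromosome medians. The second brain experiment differed from the first at the same passages in 3 members, Plin2 by 1.47, Ppard by 0.92 and Ech1 by -0.87, or 13.6% of the tested members, where 13.3% of all genes were called. No group had 4 or more arrays, so no array was tested as an outlier within its group.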

How the results depend on the processing

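Of 23 calls of single members, tried under 355 alternatives, 249 were kept, 106 were lost and 0 changed direction. Testing all probe sets left 0 members called at brain P1 (against 1), 1 at brain P2 (against 2), 0 for brain P2 over P1 (against 1), 2 for late against early brain passages (against 8), 0 in the second brain experiment P1 (against 2), 1 for early brain against bone marrow and lung (against 6) and 1 for the second against the first experiment (against 3). Without the 5 arrays with the highest floor, which leaves 1 residual degree of freedom, 0 members were called in each of these 7 comparisons. Subtracting chromosome medians gave 0 at brain P1, 1 at brain P2 and 4 for late against early. Equal array medians gave 1 at brain P2. Leaving out 1 array gave 0 at brain P1, 1 at brain P2, 0 for brain P2 over P1, 4 to 9 for late against early, 1 to 2 in the second brain experiment P1, 3 to 6 for early brain against bone marrow and lung and 2 to 3 for the second against the first experiment. In the comparisons of bone marrow, lung, breast, brain P3, brain P4 and the second brain experiment P2 with P0, and of bone marrow with lung, 0 members were called under the alternatives run. The replicate block gave 2 calls at brain P1 (Acot2 gained); it also gained Ech1 at brain P2, Acadl for late against early and Acot2 for the second against the first experiment. For early brain against bone marrow and lung it gave 5, with Acsl4, Slc25a20 and Ppard lost and Acadl and Acaa2 gained. The correlation of second-array deviations between pairs was 0.01 to 0.36 (median 0.12), and the numbers were not taken as pairs in the main model. The second arrays of brain P1 to P4 were among the 5 with the highest floor. With the block 7.77% of all genes were called at brain P1 and 16.4% at brain P2, against 5.55% and 13.3% without it. For early brain against bone marrow and lung it was 22.9%, against 23.6%. Of 84 alternatives for the member medians 9 moved, among them brain P2 (-0.01), at -0.12 with the filter of 7000 and 0.18 with chromosome medians subtracted.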
